A study of Mus musculus with 10 samples.

Results

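The data describe 34 genes that mark the walls of blood vessels, measured in mouse dorsal root ganglia after deletion of the kinesin gene Kif2a was aimed at sensory neurons. The members were chosen by name as markers of endothelial cells, pericytes and vascular smooth muscle, and were found by symbol in the deposited count table. All 34 were present among the 23923 genes of the table, and all 34 were among the 17439 genes with enough counts to be tested. By role, 24 were endothelial and 10 belonged to mural cells, the pericytes and smooth muscle cells that wrap the endothelial tube.

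Polyadenylated RNA was sequenced from ganglia of 5 samples labelled Kif2a fl/fl; Avil cre (Kif2a_cKO) and of 5 labelled Kif2a fl/fl (control), all at an age of 1 month. The floxed Kif2a allele is therefore shared by both groups, and cre was present in 1 group only, so that the presence of cre and the loss of Kif2a cannot be told apart. Avil is a gene active in sensory neurons, and vascular cells are not the cells it is used to target. The labels do not say that the samples are separate animals, and the p-values reflect only how far these samples scatter, which may be technical. Library totals ran from 28686616 to 73031457 counts in Kif2a_cKO and from 17506135 to 34500320 counts in controls. Replicates had a Pearson correlation of log2 levels of 0.978 to 0.989 in Kif2a_cKO and 0.964 to 0.987 in controls. Whole-gene Kif2a counts, which sum over exons and over every cell type present and so do not check the deletion, ran from 63.1 to 73.2 CPM (counts scaled to a common library total) in Kif2a_cKO and from 59.5 to 79.7 CPM in controls (edgeR adjusted p = 0.986, log2 fold change -0.02). The summed level of 8 sensory neuron genes was 8280 to 11000 CPM in Kif2a_cKO and 7190 to 10900 CPM in controls. Genes of the spinal cord, chosen as markers of neighbouring tissue, varied widely between libraries, with a summed level of 37.7 to 313 CPM in Kif2a_cKO and 60.5 to 2240 CPM in controls.

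Blood vessels of the ganglion are lined by endothelial cells that are sealed to each other by adherens and tight junctions and respond to vascular endothelial growth factors, angiopoietins and ligands of the TGF-beta family. Capillaries around the sensory cell bodies are known to be more permeable than those of the brain or of the nerve trunk. Pericytes sit on the capillaries and depend on PDGF receptor signalling, and smooth muscle cells form the contractile coat of the larger vessels. In bulk RNA, fewer cells of a type and less RNA per cell cannot be told apart.

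No vascular marker passed the test between Kif2a_cKO and control ganglia. Differences were small beside the spread between libraries for many members, but not for all. In members such as Pdgfrb, Vwf and Emcn the log2 fold change (-0.12, -0.17 and 0.22) was about as large as the pooled SD within groups (0.0923, 0.168 and 0.22). Of the 34 members, edgeR's quasi-likelihood test called 0 at a Benjamini-Hochberg adjusted p under 0.05 and 0 at an unadjusted p under 0.05. Over all tested genes 0.0172% were called, all of them higher, and 6.98% had an unadjusted p under 0.05 (2.97% higher and 4.01% lower). DESeq2 called 0 members, against 0.185% of the genes to which it gave an adjusted p, and limma-voom called 0, against 0.0229% of all genes. By unadjusted p, DESeq2 had 0 members under 0.05 and limma-voom had 3 (Ocln, Vwf and Pdgfrb), against 7.18% and 6.57% of all genes. In edgeR blocked by replicate number it was 2 members (Emcn and Vwf), against 8.6% of all genes. By the authors' deposited table, 0 of the 34 members carried the flag for a change, against 31 of all 23923 genes (0.13%), and the lowest false discovery rate in that table was 0.696, for Pdgfrb. The groups overlapped for every member, whereas over all tested genes 0.734% were higher in every Kif2a_cKO library than in any control and 0.436% were lower.

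The log2 fold changes of the members, Kif2a_cKO over control, were spread on both sides of 0, with 18 below and 16 above. Over all tested genes 47.9% were below and 52.1% above 0. The median was 0.00 over the 34 members, -0.01 over the 24 endothelial members and 0.11 over the 10 mural members, against 0.007 over all genes tested. Endothelial members ran from -0.40 to 0.22. The 95% interval of the fold change lay within 1.5-fold either way for 27 of 34 members, against 70.1% of all tested genes, and within 2-fold for 32 members, against 87.9%. The 7 with wider intervals were Ocln, Rgs5, Cspg4, Acta2, Tagln, Myh11 and Des, of which 6 are mural. The summed level of the 24 endothelial members was 346 to 432 CPM in Kif2a_cKO and 343 to 436 CPM in controls. Across all 10 libraries the highest value of a member was less than 2 times its lowest for 27 of 34 members, with a median ratio of 1.72.

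**Figure D1:**
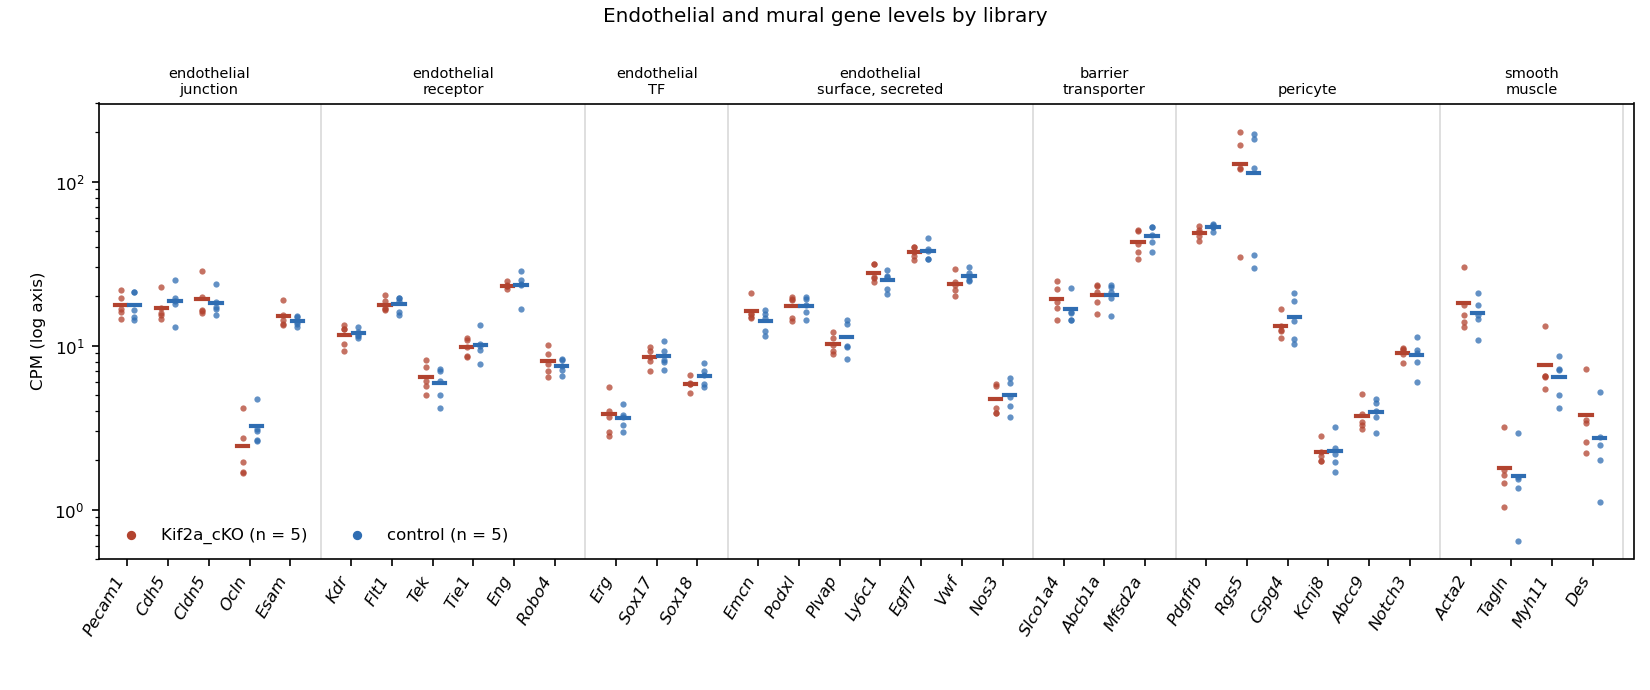
Level of each of the 34 genes in CPM (log axis), by role, with 1 point per library, Kif2a_cKO on the left and control on the right of each pair, and a bar at the group mean (n = 5 each). The groups overlap for every gene, and Rgs5 spans the widest range, from 29.9 to 201 CPM.

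**Figure D2:**
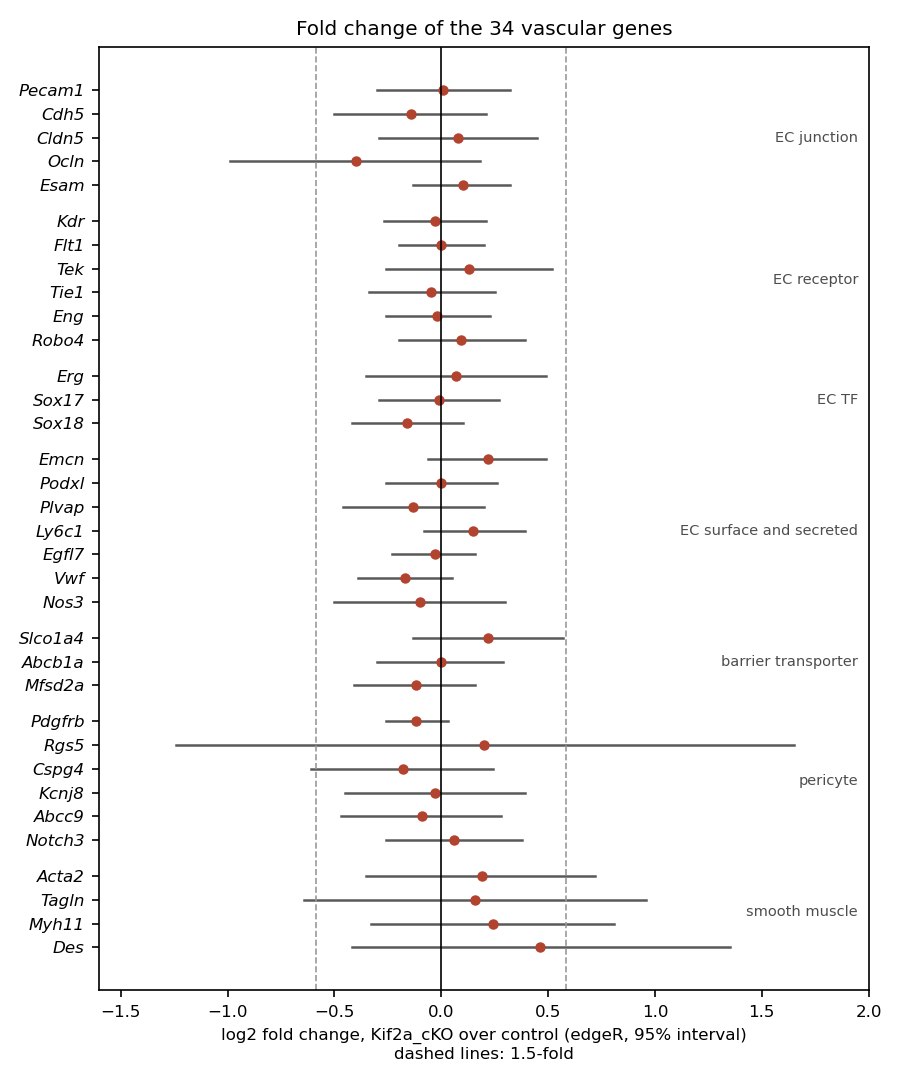
Log2 fold change of each gene, Kif2a_cKO over control, with its 95% interval from edgeR, and dashed lines at 1.5-fold either way. Every interval includes 0, and those of Rgs5, Tagln and Des are the widest.

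Over the 5 junction genes the median log2 fold change was 0.01, with 3 above and 2 below 0 and none called. Cldn5, which encodes the main claudin of endothelial tight junctions and had the highest level per length in this role (13.3 CPM per kilobase), had 16.2, 19.7, 28.5, 15.9 and 16.6 CPM in Kif2a_cKO 1 to 5, against 16.7, 18.4, 23.7, 17.2 and 15.3 CPM in control 1 to 5. The value of 28.5 CPM in Kif2a_cKO 3 was the highest and the other libraries of both groups lay between 15.3 and 23.7 CPM. Its log2 fold change came to 0.08 (SE 0.170, edgeR adjusted p = 0.961), and without Kif2a_cKO replicate 3 it was -0.11. Esam, an immunoglobulin-family adhesion molecule of endothelial contacts, had 15.4, 13.6, 19, 13.4 and 14.3 CPM in Kif2a_cKO 1 to 5, against 13, 13.6, 14, 14.9 and 15.2 CPM in control 1 to 5. Its values differed little outside Kif2a_cKO 3, again the highest, and its log2 fold change came to 0.10 (SE 0.103, edgeR adjusted p = 0.885).

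Cdh5, which encodes VE-cadherin, the adherens junction protein of endothelium, had 15.9, 14.5, 15.4, 16.9 and 22.7 CPM in Kif2a_cKO 1 to 5, against 13, 18.6, 25.1, 18 and 19.4 CPM in control 1 to 5. The lowest and the highest value were both in controls, and its log2 fold change came to -0.14 (SE 0.164, edgeR adjusted p = 0.904). Ocln encodes occludin, a tight junction protein that epithelia and the perineurial sheath of nerves also make. Ocln had 1.67, 1.7, 2.75, 1.94 and 4.18 CPM in Kif2a_cKO 1 to 5, against 3, 2.62, 4.72, 3.08 and 2.66 CPM in control 1 to 5. In Kif2a_cKO 1, 2 and 4 it was below every control, whereas Kif2a_cKO 3 and Kif2a_cKO 5 lay within the control range. This was the member with the lowest log2 fold change (-0.40, SE 0.270, edgeR adjusted p = 0.778), with an interval from -49.5% to 13.5%, and without Kif2a_cKO replicate 5 it was -0.69. Pecam1, which encodes the adhesion molecule CD31, averaged 17.8 ± 2.98 CPM in Kif2a_cKO, against 17.6 ± 3.35 CPM in the controls (SD, n = 5 each), with an interval of the change from -18.7% to 24.6%.

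The 6 endothelial receptors were, of the 7 roles, the one with the narrowest spread of log2 fold changes, from -0.05 to 0.13, with a median of -0.01 and none called. Eng, which encodes endoglin, a co-receptor for TGF-beta family ligands, had the highest level per length of the 6 (5.77 CPM per kilobase). Eng had 23, 22.1, 24.7, 23.4 and 23.1 CPM in Kif2a_cKO 1 to 5, against 16.8, 23.7, 28.4, 25 and 23.6 CPM in control 1 to 5. The Kif2a_cKO values all lay inside the control range, whose lowest value was in control 1 and highest in control 3 (log2 fold change -0.02, SE 0.113, edgeR adjusted p = 0.994). Tek, the receptor of angiopoietins, had 5.7, 6.1, 8.17, 4.97 and 7.45 CPM in Kif2a_cKO 1 to 5, against 4.19, 4.98, 7.05, 6.1 and 7.2 CPM in control 1 to 5. Both groups ran over nearly the same range, with the highest value in Kif2a_cKO 3 and the lowest in control 1 (log2 fold change 0.13, SE 0.180, edgeR adjusted p = 0.934).

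Tie1, a receptor that pairs with Tek, had 11.1, 9.85, 10.8, 8.55 and 8.7 CPM in Kif2a_cKO 1 to 5, against 9.47, 7.74, 9.91, 13.3 and 10.3 CPM in control 1 to 5. Only control 4 exceeded the Kif2a_cKO values, and its log2 fold change came to -0.05 (SE 0.138, edgeR adjusted p = 0.977). Robo4, a roundabout receptor of endothelial cells, had 10.1, 6.97, 8.94, 6.45 and 7.68 CPM in Kif2a_cKO 1 to 5, against 8.22, 6.49, 8.29, 7.47 and 7.11 CPM in control 1 to 5. Kif2a_cKO 1 was the highest and Kif2a_cKO 4 the lowest of all 10 (log2 fold change 0.09, SE 0.135, edgeR adjusted p = 0.934). The 2 receptors for vascular endothelial growth factor were as close between groups. Kdr, the main signalling receptor, averaged 11.6 ± 1.79 CPM in Kif2a_cKO, against 11.9 ± 0.696 CPM in the controls. Flt1, which binds the ligand tightly and also exists as a soluble decoy, averaged 17.8 ± 1.6 CPM in Kif2a_cKO, against 17.8 ± 1.95 CPM in the controls (SD, n = 5 each). The interval of the change ran from -17.1% to 15.3% for Kdr and from -13.1% to 15% for Flt1.

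Promoter windows of 300 bases, from 250 before to 50 after the annotated start of a gene (RefSeq, GRCm38.p6), were in hand for 22 of the 34 members, 28 windows in all. The core AGGAAG, recognised by ETS factors such as the product of Erg, was searched on both strands and was present in 11 of the 28 windows (39.3%), against 35.4% of 32851 windows of all genes. The core ACAAT of SOX factors was present in 8 of 28 (28.6%), against 31.0%. The CArG box, the motif of serum response factor, had an exact match to its consensus on either strand in 0 of 28, against 1.63%. Copies with a base off the consensus were not counted, and of the 4 smooth muscle members only Acta2 and Des had a window. The shares in the members' windows for the ETS and SOX cores therefore lay near those of all genes. All 6 receptors had a window, and the exact ETS string AGGAAG, on either strand, was present in those of Flt1, Tie1, Eng and Robo4 and not in those of Kdr and Tek. Other forms of the ETS motif were not searched for in any window. The windows of 3 of the 4 receptors with a core are shown as examples, with each ETS core (AGGAAG, or CTTCCT on the other strand) in capitals. They are Flt1 at chr5:147725962-147726261, minus strand, Tie1 at chr4:118489800-118490099, minus strand, and Robo4 at chr9:37401722-37402021, plus strand, each written 5′ to 3′ on the strand of the gene.
Flt1: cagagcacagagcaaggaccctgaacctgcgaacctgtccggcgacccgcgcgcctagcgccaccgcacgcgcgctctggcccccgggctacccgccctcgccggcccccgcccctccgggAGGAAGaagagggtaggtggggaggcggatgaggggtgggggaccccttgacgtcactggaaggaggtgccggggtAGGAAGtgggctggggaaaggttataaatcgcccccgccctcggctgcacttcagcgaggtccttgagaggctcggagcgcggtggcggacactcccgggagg
Tie1: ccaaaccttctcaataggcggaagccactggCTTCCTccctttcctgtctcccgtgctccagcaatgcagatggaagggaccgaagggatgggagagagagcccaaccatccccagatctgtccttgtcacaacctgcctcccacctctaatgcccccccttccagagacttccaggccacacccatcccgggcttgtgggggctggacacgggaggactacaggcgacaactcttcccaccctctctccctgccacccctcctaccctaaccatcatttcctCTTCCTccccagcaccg
Robo4: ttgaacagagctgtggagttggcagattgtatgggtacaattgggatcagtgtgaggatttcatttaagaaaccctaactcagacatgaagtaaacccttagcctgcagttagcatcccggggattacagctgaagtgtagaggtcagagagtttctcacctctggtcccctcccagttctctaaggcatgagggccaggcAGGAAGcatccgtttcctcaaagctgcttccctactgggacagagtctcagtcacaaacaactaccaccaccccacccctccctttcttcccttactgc
The core occurred 2 times in the Flt1 window, 2 times in the Tie1 window and 1 time in the Robo4 window. A match describes these letters only and is not a measured binding site.

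The 3 endothelial transcription factors were also level between groups, with a median log2 fold change of -0.01. Sox18, a SOX factor of endothelial differentiation and the highest of the 3 per length (3.83 CPM per kilobase), had 5.84, 5.13, 6.61, 5.89 and 5.8 CPM in Kif2a_cKO 1 to 5, against 5.56, 5.84, 7.79, 6.96 and 6.59 CPM in control 1 to 5. Kif2a_cKO 2 was the lowest and control 3 the highest, and the other values interleaved (log2 fold change -0.16, SE 0.122, edgeR adjusted p = 0.815). Sox17, a related factor of arterial endothelium, had 9.87, 8.08, 9.25, 8.58 and 6.98 CPM in Kif2a_cKO 1 to 5, against 7.13, 9.25, 8, 10.6 and 8.17 CPM in control 1 to 5. The groups ran over nearly the same range (log2 fold change -0.01, SE 0.128, edgeR adjusted p = 0.998). Erg, an ETS factor that maintains endothelial identity, had 4.02, 2.81, 3.65, 2.99 and 5.56 CPM in Kif2a_cKO 1 to 5, against 2.97, 3.26, 4.4, 3.76 and 3.66 CPM in control 1 to 5. Kif2a_cKO 5 was the highest library and Kif2a_cKO 2 the lowest (log2 fold change 0.07, SE 0.194, edgeR adjusted p = 0.971).

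Of the 7 surface and secreted endothelial genes 3 lay above and 4 below 0, at a median log2 fold change of -0.03. Ly6c1, a GPI-anchored surface protein common on endothelium, had 26.2, 25.7, 31.5, 24.5 and 31.4 CPM in Kif2a_cKO 1 to 5, against 20.7, 22.3, 29.1, 26.3 and 26.6 CPM in control 1 to 5, and was the highest of the 7 per length (15.8 CPM per kilobase). Its 2 highest values were in Kif2a_cKO and its 2 lowest in controls, with the others interleaved (log2 fold change 0.15, SE 0.107, edgeR adjusted p = 0.791). Ly6c1 has a close paralog, Ly6c2, and reads shared between them depend on the authors' counting. Emcn, a sialomucin of capillary and venous endothelium, had 14.9, 14.8, 15.5, 15.6 and 21 CPM in Kif2a_cKO 1 to 5, against 12.2, 11.4, 15.5, 14.8 and 16.6 CPM in control 1 to 5. Kif2a_cKO 5 was the highest of the 10 libraries and control 1 and 2 the lowest (log2 fold change 0.22, SE 0.128, edgeR adjusted p = 0.735). Vwf, the von Willebrand factor that endothelium stores and releases for platelet adhesion, had 21.8, 23.4, 24.6, 20.1 and 29.4 CPM in Kif2a_cKO 1 to 5, against 24.7, 27.6, 25.1, 26.2 and 30.2 CPM in control 1 to 5. Of the Kif2a_cKO libraries 4 lay below every control, and Kif2a_cKO 5 lay above 4 of the 5 controls (log2 fold change -0.17, SE 0.101, edgeR adjusted p = 0.742).

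The other surface and secreted genes showed no clearer separation. Egfl7, a secreted factor of vessel tube formation, averaged 37.1 ± 3.07 CPM in Kif2a_cKO, against 37.9 ± 4.77 CPM in the controls. Podxl, the sialomucin podocalyxin of the luminal surface, averaged 17.4 ± 2.71 CPM in Kif2a_cKO, against 17.4 ± 2.27 CPM in the controls. Plvap, the diaphragm protein of fenestrated endothelium, averaged 10.3 ± 1.32 CPM in Kif2a_cKO, against 11.2 ± 2.65 CPM in the controls, and was detected in all 10 libraries. Nos3, the endothelial nitric oxide synthase, averaged 4.70 ± 0.988 CPM in Kif2a_cKO, against 5.03 ± 1.12 CPM in the controls (SD, n = 5 each). Exons of Nos3 overlap those of Atg9b and Gm15587 on the opposite strand, and those of Egfl7 and Eng overlap Agpat2 and Fpgs. Strandedness is not stated, so a part of these counts may belong to the overlapping genes.

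The 3 transporters that mark endothelium with a barrier were measured in every library. Mfsd2a, a transporter of lysophospholipids needed for low vesicle traffic in barrier endothelium, had 19.9 CPM per kilobase, the highest of the endothelial members per length. Mfsd2a had 50.1, 33.6, 51.1, 37.5 and 41.7 CPM in Kif2a_cKO 1 to 5, against 47.3, 37, 53, 42.9 and 52.6 CPM in control 1 to 5. The Kif2a_cKO values of 33.6 and 37.5 CPM were among the 3 lowest, and the rest interleaved with controls (log2 fold change -0.12, SE 0.130, edgeR adjusted p = 0.884). Slco1a4, an organic anion transporter, had 18.4, 14.4, 24.7, 17 and 22.3 CPM in Kif2a_cKO 1 to 5, against 14.4, 16, 22.6, 15.9 and 14.3 CPM in control 1 to 5. Kif2a_cKO 3 and 5 and control 3 held the 3 highest values (log2 fold change 0.22, SE 0.160, edgeR adjusted p = 0.805). Abcb1a, the efflux pump P-glycoprotein, had 23.1, 15.7, 21.3, 18.4 and 23.6 CPM in Kif2a_cKO 1 to 5, against 15.2, 21.2, 19.6, 23.5 and 22.9 CPM in control 1 to 5. The ranges of the groups nearly coincided (log2 fold change 0.00, SE 0.135, edgeR adjusted p = 0.999). Abcb1a shares sequence with Abcb1b, and part of its exons overlap Gm42686 on the other strand.

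Of the 6 pericyte genes, Pdgfrb was the steadiest and Rgs5 the most variable of all 34 members. Pdgfrb, the receptor that keeps pericytes on the vessel, had 46.8, 51, 49.1, 43.7 and 53.6 CPM in Kif2a_cKO 1 to 5, against 53.3, 52.9, 54.8, 55 and 49.2 CPM in control 1 to 5. Kif2a_cKO 4, 1 and 3 lay below every control, although Kif2a_cKO 3 (49.1 CPM) was only just below control 5 (49.2 CPM). Kif2a_cKO 2 and 5 lay within the control range. Pdgfrb had the lowest unadjusted p of the members (0.0993) and a log2 fold change of -0.12 (SE 0.0672, edgeR adjusted p = 0.727), with an interval from -16.8% to 1.82%. Its pooled SD within groups was 0.0923 on the log2 scale, against a median of 0.255 over the members and 0.198 over all tested genes. Whether cells other than pericytes contributed to the Pdgfrb counts was not tested.

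Rgs5, a regulator of G-protein signalling that is a standard pericyte marker, is on the plus strand of chromosome 1 from 169655501 to 169695813 (GRCm38). Its level was the highest of the members per length, at 26.5 CPM per kilobase. Rgs5 had 34.5, 122, 167, 201 and 120 CPM in Kif2a_cKO 1 to 5, against 35.7, 29.9, 181, 195 and 121 CPM in control 1 to 5. The values fell at 3 levels that did not follow the groups. They were 29.9 to 35.7 CPM in 3 libraries (Kif2a_cKO 1, control 1 and control 2), 120 to 122 CPM in 3 libraries (Kif2a_cKO 2, Kif2a_cKO 5 and control 5) and 167 to 201 CPM in 4 libraries (Kif2a_cKO 3, Kif2a_cKO 4, control 3 and control 4). Libraries of the same replicate number shared a level for numbers 1, 3, 4 and 5, but not for number 2. The lowest library still held 833 reads of Rgs5. The pooled SD within groups was 1.15 on the log2 scale, rank 238 of 17439 tested genes. With such a spread the log2 fold change of 0.20 (SE 0.635, edgeR adjusted p = 0.978) has an interval from -57.7% to 214%, and leaving out 1 library at a time moved it between -0.05 and 0.48.

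None of the other pericyte genes had these 3 libraries as its lowest. Cspg4, the proteoglycan NG2, had 13.2, 12.5, 12.2, 11.1 and 16.7 CPM in Kif2a_cKO 1 to 5, against 10.3, 10.9, 18.6, 21 and 14.1 CPM in control 1 to 5. Control 3 and 4 were the highest and control 1 and 2 the lowest, so that the Kif2a_cKO values lay inside the control range (log2 fold change -0.18, SE 0.194, edgeR adjusted p = 0.885). NG2 is also made by oligodendrocyte precursors and some glia. Abcc9, the sulfonylurea receptor subunit of the pericyte potassium channel, had 3.26, 3.09, 5.04, 3.42 and 3.81 CPM in Kif2a_cKO 1 to 5, against 3.68, 2.94, 4.48, 3.99 and 4.71 CPM in control 1 to 5. Both groups spanned a similar range (log2 fold change -0.09, SE 0.174, edgeR adjusted p = 0.953). Kcnj8, the pore subunit of the same channel, averaged 2.23 ± 0.342 CPM in Kif2a_cKO, against 2.28 ± 0.569 CPM in the controls. Notch3, the Notch receptor of mural cells, averaged 9.07 ± 0.772 CPM in Kif2a_cKO, against 8.71 ± 1.96 CPM in the controls (SD, n = 5 each). Without Rgs5 the median log2 fold change of the 5 other pericyte genes was -0.09.

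**Figure D3:**
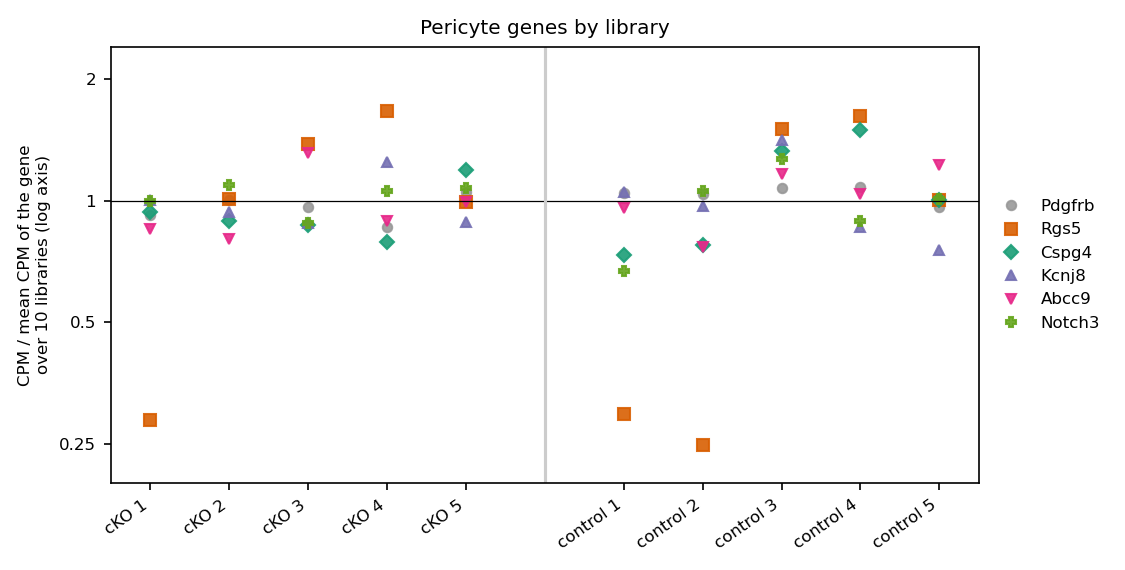
Level of the 6 pericyte genes in each library divided by the mean of that gene over the 10 libraries (log axis), with Kif2a_cKO libraries left of the controls. Rgs5 is low in Kif2a_cKO 1, control 1 and control 2, and none of the other 5 genes has these 3 libraries as its lowest.

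The order of the libraries in Rgs5 was then looked for in other genes, a comparison chosen after the Rgs5 values were seen. Among 315 tested genes that start within 20 Mb of Rgs5, 30 (9.52%) had the same 3 libraries as their 3 lowest or 3 highest, 23 lowest (Rgs5 included) and 7 highest. Among the 16837 other tested genes with a position it was 1.70%. The share over all of chromosome 1 was 4.56%. No test was run on these shares, since neighbouring genes are not independent and the libraries were picked by Rgs5 itself.

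Apoa2, an apolipoprotein gene that starts 1.57 Mb from Rgs5, had 0, 0.208, 1.01, 0.955 and 0.741 CPM in Kif2a_cKO 1 to 5, against 0, 0, 0.443, 1.37 and 0.205 CPM in control 1 to 5. It was listed at 0 in the same 3 libraries and was at a low level in the others. Fcgr3, an Fc receptor gene of myeloid cells 1.40 Mb away, had 7.14, 11.4, 16.3, 15.2 and 15.6 CPM in Kif2a_cKO 1 to 5, against 8.59, 7.56, 18.3, 12.8 and 11.9 CPM in control 1 to 5. Its 3 lowest values were in the 3 libraries low in Rgs5. Tagln2, which encodes the actin-binding protein transgelin 2, starts 2.84 Mb away and ran the other way. Tagln2 had 608, 509, 302, 339 and 382 CPM in Kif2a_cKO 1 to 5, against 680, 850, 221, 345 and 436 CPM in control 1 to 5. The 3 libraries low in Rgs5 were its 3 highest. The window at the Rgs5 start (chr1:169655251-169655550, plus strand, RefSeq, GRCm38.p6) is shown because Rgs5 is the member whose level separated the libraries. It held 1 SOX core, in capitals, and no exact copy of the ETS string AGGAAG on either strand.
Rgs5: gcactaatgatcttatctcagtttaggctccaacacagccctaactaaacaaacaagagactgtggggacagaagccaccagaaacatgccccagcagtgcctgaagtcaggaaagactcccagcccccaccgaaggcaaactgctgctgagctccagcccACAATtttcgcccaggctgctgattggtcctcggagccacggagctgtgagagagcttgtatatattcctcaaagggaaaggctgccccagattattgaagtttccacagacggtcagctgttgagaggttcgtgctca

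**Figure D4:**
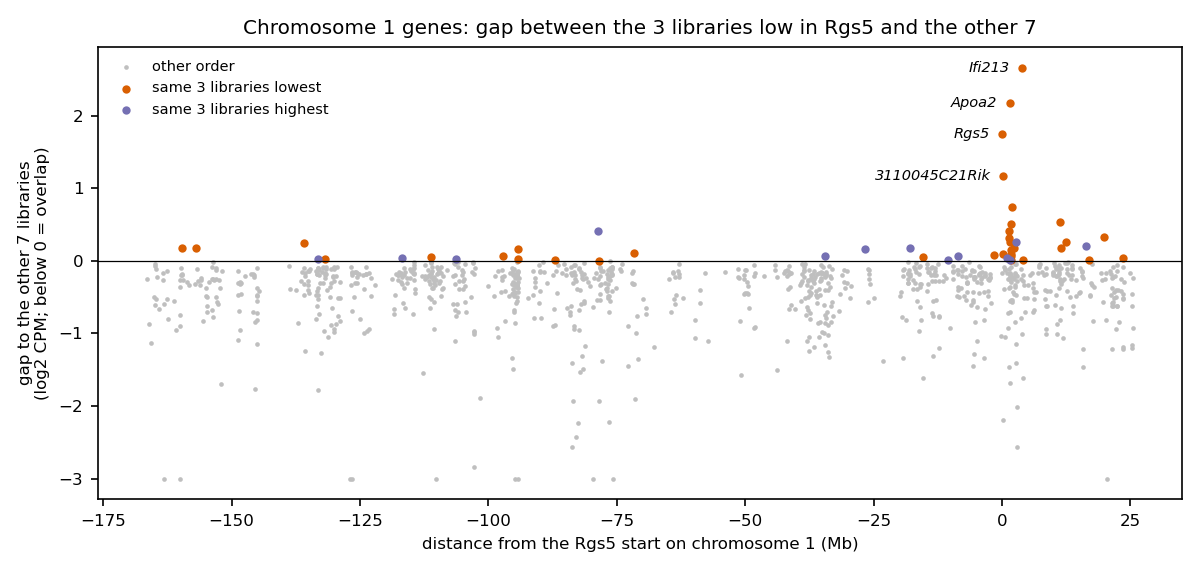
Tested genes of chromosome 1 by distance of their start from that of Rgs5 (Mb) and by the gap in log2 CPM between the 3 libraries low in Rgs5 and the other 7, with values below 0 where they overlap (drawn at -3 where lower). Genes with these 3 libraries lowest (orange) or highest (purple) are frequent within 20 Mb of Rgs5, where they number 30 of 315.

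The 4 smooth muscle genes all lay above 0, at a median log2 fold change of 0.21, and none was called. Acta2, the smooth muscle actin, had the highest level per length of the 4 (7.74 CPM per kilobase). Acta2 had 14, 13, 17.8, 15.4 and 30.3 CPM in Kif2a_cKO 1 to 5, against 10.8, 14.6, 15.4, 17.8 and 21 CPM in control 1 to 5. Kif2a_cKO 5 was the highest and control 5 the next, while the other 8 libraries lay between 10.8 and 17.8 CPM (log2 fold change 0.19, SE 0.243, edgeR adjusted p = 0.925). Its reads can be shared with other actin genes, depending on the counting. Myh11, the smooth muscle myosin heavy chain, had 6.49, 5.41, 6.4, 6.49 and 13.2 CPM in Kif2a_cKO 1 to 5, against 4.17, 4.98, 7.11, 7.24 and 8.64 CPM in control 1 to 5. Kif2a_cKO 5 and control 5 were again the 2 highest (log2 fold change 0.24, SE 0.261, edgeR adjusted p = 0.891).

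Des encodes desmin, the intermediate filament of muscle cells, smooth and skeletal. Des, on chromosome 1 from 75360329 to 75368579 (GRCm38), had 2.2, 3.5, 3.37, 2.57 and 7.25 CPM in Kif2a_cKO 1 to 5, against 2, 1.11, 2.48, 2.79 and 5.21 CPM in control 1 to 5. Kif2a_cKO 5 and control 5 were the highest, and control 2, control 1 and Kif2a_cKO 1, the 3 libraries low in Rgs5, were the lowest. The start of Des lies at -94.3 Mb from that of Rgs5, outside the 20 Mb window. Over all tested genes with a position, 1.84% had these 3 libraries as their lowest or highest. The log2 fold change of Des, 0.46, was the highest of the members (SE 0.406, edgeR adjusted p = 0.849). Leaving out 1 library at a time moved it between 0.07 and 0.84. Tagln, which encodes transgelin and was the least abundant of the 4, had 1.62, 1.04, 1.74, 1.45 and 3.17 CPM in Kif2a_cKO 1 to 5, against 1.57, 0.645, 2.92, 1.54 and 1.35 CPM in control 1 to 5. Kif2a_cKO 5 was again the highest, but control 3 came next and control 5 was among the lower libraries (log2 fold change 0.16, SE 0.369, edgeR adjusted p = 0.969). Exons of Tagln overlap Gm48529 and Pcsk7 on the other strand, and those of Des overlap Gm15179.

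The libraries high in Acta2, Myh11 and Des were also high in genes of skeletal muscle, a tissue that lies beside the ganglion. The summed level of 13 skeletal muscle genes was 228 CPM in Kif2a_cKO 5 and 18.9 to 48.1 CPM in the other Kif2a_cKO libraries. In controls it was 183 CPM in control 5 and 15.6 to 72.0 CPM in the others. Acta1, the skeletal muscle actin, had 1.06, 9.95, 1.11, 1.08 and 45.5 CPM in Kif2a_cKO 1 to 5, against 6.11, 1.04, 1.86, 4.16 and 34.2 CPM in control 1 to 5. Kif2a_cKO 5 and control 5 stood apart from the rest in this gene also. Of 13 other smooth muscle genes the summed level was 253 CPM in Kif2a_cKO 5, against 201 to 241 CPM in the other Kif2a_cKO libraries. By this sum control 5, at 227 CPM, was the lowest control. The mean over these genes of the log2 deviation from each gene's mean weighs them equally. By that measure Kif2a_cKO 5 was again the highest library, at 0.36. Control 5, at 0.03, was then below only control 3 (0.1) among the controls. Without replicate 5 of both groups the median log2 fold change of the 10 mural members was 0.00, and without Kif2a_cKO replicate 5 alone Acta2 was at -0.09 and Myh11 at -0.06. The part of muscle tissue in the smooth muscle values was not tested further.

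**Figure D5:**
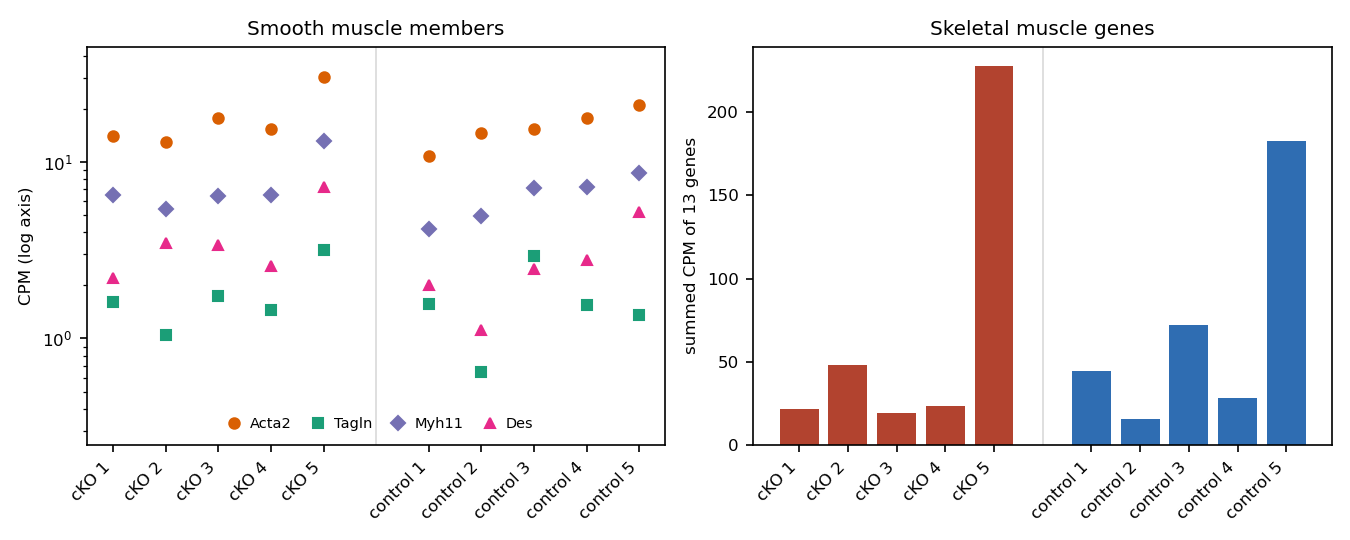
Left, level in CPM (log axis) of the 4 smooth muscle members in each library; right, summed CPM of 13 skeletal muscle genes in the same libraries, with Kif2a_cKO left of control in both. Kif2a_cKO 5 and control 5 have the highest Acta2, Myh11 and Des and the highest skeletal muscle sums (228 and 183 CPM).

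The highest and lowest values of the 34 members fell mostly in a few libraries. Kif2a_cKO 5 held the highest value of 9 members, Kif2a_cKO 3 of 7, control 3 of 9 and control 4 of 5. Control 1 held the lowest value of 13 members and control 2 of 7. Control 3 was also the library with the highest summed level of the spinal cord genes (2240 CPM) and of 6 red blood cell genes (381 CPM, against 67.4 to 269 CPM in Kif2a_cKO and 77.5 to 182 CPM in the other controls). With the spinal cord score as a covariate 0 members were called (lowest edgeR adjusted p = 0.943), against 0.0172% of all tested genes, and 0 had an unadjusted p under 0.05, against 4.74%. Without control replicates 1, 3 and 5, which had the highest spinal cord scores, 0 were called (lowest edgeR adjusted p = 0.991), 0 had an unadjusted p under 0.05 (against 0.0% and 3.33% of all tested genes), and the median log2 fold change of the members was 0.09. That fit rests on the 2 remaining controls.

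Other genes chosen as vascular, in 10 lists of ligands, receptors, transcription factors and markers of vessel types, gave 0 called genes among 114 tested (117 measured). The list of 17 other barrier genes summed to 2370 to 3080 CPM in Kif2a_cKO and 2240 to 3160 CPM in controls. Like the sum of 8 sensory neuron genes, it was highest in replicate 2 of each group and lowest in Kif2a_cKO 5 and control 3. Which cells the counts of these lists came from was not tested. At an unadjusted p under 0.05 there were 8 higher and 7 lower (13.2% of the 114, against 6.98% of all tested genes). DESeq2 called Tfrc, the transferrin receptor (DESeq2 adjusted p = 0.0395), against 0.185% of the genes to which it gave an adjusted p. Barrier endothelium and dividing cells carry this receptor, but not they alone, and which cells gave its counts was not tested. Tfrc had 99.8, 98.1, 100, 105 and 121 CPM in Kif2a_cKO 1 to 5, against 81.7, 83.8, 79.1, 85.2 and 91.2 CPM in control 1 to 5. Every Kif2a_cKO library was above every control, with a log2 fold change of 0.31 (SE 0.0727), but the edgeR adjusted p was 0.579. Gimap6, a GTPase gene shared by endothelium and lymphocytes, had 10.3, 8.84, 10.8, 9.3 and 9.98 CPM in Kif2a_cKO 1 to 5, against 8.7, 6.09, 7.64, 8.72 and 8.52 CPM in control 1 to 5. Its groups did not overlap either, with the Kif2a_cKO libraries higher (log2 fold change 0.31, SE 0.115, edgeR adjusted p = 0.703). In all, 3 genes of these lists had groups that did not overlap, and 1 of them, a barrier gene, was lower in Kif2a_cKO. Over all tested genes 0.734% were higher and 0.436% lower in this way.

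Among the ligands, Jag1, a Notch ligand, averaged 19.7 ± 1.67 CPM in Kif2a_cKO, against 16.7 ± 2.02 CPM in the controls, and Vegfb, the most abundant of the list, 72.4 ± 12.2 CPM in Kif2a_cKO, against 78.3 ± 10.6 CPM in the controls (SD, n = 5 each). Apln, the ligand apelin, averaged 3.01 ± 0.859 CPM in Kif2a_cKO, against 6.61 ± 6.17 CPM in the controls, with 16.9 CPM in control 3. Of the other receptors, S1pr1, the sphingosine-1-phosphate receptor of endothelium and astrocytes, averaged 22.4 ± 2.02 CPM in Kif2a_cKO, against 30.9 ± 10.5 CPM in the controls, with 48.9 CPM in control 3. Apln and S1pr1 were thus highest in the library with the highest spinal cord sum, whose part in these values was not tested. Tgfbr2, a TGF-beta receptor, averaged 35.3 ± 3.46 CPM in Kif2a_cKO, against 41.5 ± 5.51 CPM in the controls. Klf2, a transcription factor induced by flow, averaged 14.7 ± 1.78 CPM in Kif2a_cKO, against 18.1 ± 1.93 CPM in the controls (log2 fold change -0.31, SE 0.104, edgeR adjusted p = 0.703), and control 5 (15 CPM) lay within the Kif2a_cKO range.

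Vessel types gave no clearer difference. In the arterial list Fbln2, a fibulin of the extracellular matrix, averaged 130 ± 13.4 CPM in Kif2a_cKO, against 111 ± 25 CPM in the controls. In the venous list Ackr1, a chemokine-binding receptor of venules, averaged 57.6 ± 13.7 CPM in Kif2a_cKO, against 45.2 ± 8.86 CPM in the controls (log2 fold change 0.35, SE 0.164, edgeR adjusted p = 0.703). In the lymphatic list Prox1, the lymphatic transcription factor that oligodendrocytes also express, averaged 0.488 ± 0.235 CPM in Kif2a_cKO, against 2.12 ± 2.65 CPM in the controls (SD, n = 5 each), with 6.67 CPM in control 3. Among other pericyte genes, Heyl, a Notch target of mural cells, averaged 11.8 ± 1.90 CPM in Kif2a_cKO, against 9.78 ± 1.21 CPM in the controls. Among other smooth muscle genes, Mustn1 averaged 8.39 ± 2.29 CPM in Kif2a_cKO, against 5.88 ± 0.619 CPM in the controls (log2 fold change 0.51, SE 0.166, edgeR adjusted p = 0.703), and Smtn, which encodes smoothelin, 81.8 ± 12.4 CPM in Kif2a_cKO, against 99.2 ± 11 CPM in the controls. These values overlapped between the groups.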

How the data were processed

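Gene expression was measured by sequencing of polyadenylated RNA from dorsal root ganglia. The submitters' processing notes name cutadapt, STAR, DESeq2 and the mm10 build, without roles or versions; which program counted the reads, with what annotation and strand setting, is not given in the sources used here. Every test here used the whole-number counts per gene that the authors deposited. A size-factor-scaled signal deposited by the authors was not tested. The deposited log2 fold change, p-value and false discovery rate are those of the authors' own comparison.

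The main test was run in edgeR 4.0.16 under R 4.3.3 (filterByExpr with minimum count 10 and minimum total 15, TMM factors from 0.957 to 1.05, robust quasi-likelihood F test on the group, Benjamini-Hochberg adjustment over 17439 genes, threshold 0.05). CPM use the TMM factors, and log2 CPM a prior count of 2. CPM per kilobase divides the mean by the exon length in GENCODE (GRCm38); 97.6% of symbols matched. Groups and replicate numbers come from the sample titles. Pairs of replicates were further apart than counting noise allows (chi-square per gene of at least 19.1 in Kif2a_cKO and 9.92 in controls). Alternatives were DESeq2 1.42.0, limma-voom (limma 3.58.1) with sample quality weights, other scalings and filters, a replicate block, a spinal cord covariate and left-out libraries. Tables were summarised in Python 3.11.15 with pandas 2.3.3.

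The members and lists were chosen with earlier results of these data known. Values in every library are given for the member of each role with the highest CPM per kilobase and for up to 3 with the smallest unadjusted p; of the other vascular lists, up to 2 genes with the smallest p and the most abundant were candidates for naming. Acta1, Apoa2, Fcgr3 and Tagln2 were chosen after their values were seen. Some single-gene results of the other vascular lists are not reported here.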

Additional observations from a re-analysis of the deposited data

Results flagged for a closer look

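Of 68 sets of 5 values (34 genes in each group), 6 held a library that stood apart from the others by Dixon's test at the 95% level. At that level about 1 in 20 independent sets would be flagged. The sets share the same libraries and the share over all tested genes is not given here, so the 6 cannot be read as an excess. In Kif2a_cKO 5 these were Acta2 at 30.3 CPM (next highest of the group 17.8), Myh11 at 13.2 CPM (next 6.49), Des at 7.25 CPM (next 3.50) and Emcn at 21 CPM (next 15.6). The first 3 are muscle genes, and the summed skeletal muscle level was also highest in this library, at 228 CPM. It differed in other tissue genes too. Of the Kif2a_cKO libraries it had the highest sums of 8 fibroblast and meninges genes (3590 CPM) and of 6 red blood cell genes (269 CPM). Its sum of 8 sensory neuron genes was the lowest of that group (8280 CPM). In control 3 they were Ocln at 4.72 CPM (next 3.08) and Slco1a4 at 22.6 CPM (next 16). Control 3 also had the highest summed spinal cord level, at 2240 CPM, and the highest summed fibroblast and meninges level, at 3640 CPM. Whether other tissue contributed to these values was not tested.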

How the results depend on the processing

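The number of members called was 0 under all 20 alternatives, with a lowest adjusted p of 0.553 (replicate block, edgeR), and the medians over the members, the endothelial and the mural members moved by less than the spread between replicates. The number of genes called over the whole table was 3, and it was 39 with DESeq2 and 0 when 1 CPM in 5 libraries was required, with the replicate block, without control replicates 1, 3 and 5 together and without replicate 5 of both groups together. With 1 library left out it ran from 0 to 3, and without control replicate 3 it was 1. The cause was not tested. With 1 library left out the median log2 fold change ran from -0.06 to 0.04 over the members, from -0.06 to 0.04 over the endothelial members and from -0.08 to 0.16 over the mural members. Of 680 alternative values for single members, 665 lay within 1 SE of the reported value and 15 did not. In the replicate block fit 2 members (Emcn and Vwf) had an unadjusted p under 0.05, against 8.6% of all genes, and 0 were called. Same-numbered libraries deviated together with correlations of 0.177, 0.367, 0.140, -0.147 and 0.252 for numbers 1 to 5, and 4 of 5 Kif2a_cKO libraries, not number 4, matched their own number best. Because of number 4 the numbers were not taken to pair the samples, but a pairing is not excluded by this. The SEs and intervals given for single genes come from the fit without the block. Leaving out replicate 5 of both groups was chosen after seeing the data. An unadjusted p under 0.05 was reached by Ocln, Vwf and Pdgfrb, all lower, in that fit (6.28% of all genes), without Kif2a_cKO replicate 5 alone (6.41%) and in limma-voom (6.57%). It was reached by Slco1a4, higher, without control replicate 3 (4.57%), and by Pdgfrb, lower, and Des, higher, without control replicate 5 (6.78%). Apart from these and the replicate block, no alternative tried gave a member such a p. Members of few counts are limited by depth: Tagln averaged 1.6 CPM in controls. Rgs5 and Des, the members whose libraries differed most, are limited by that spread.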
